A study of Mus musculus with 10 samples.

Results

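The Zfp genes described here are the mouse zinc finger protein genes whose symbol is Zfp followed by a number. They were chosen by their mean FPKM (fragments per kilobase of transcript, scaled to the size of the library), which had to be at least 1 over 10 morula libraries of both groups together, and Zfp352, Zfp36 and Zfp42 were left out by name. The tables hold 337 symbols of this form; 200 met the rule, 134 lay under the floor and 3 were left out. The 200 genes are among 9522 genes at or above the same floor and 24411 genes listed. The libraries came from ICR mouse embryos made by in vitro fertilization of superovulated oocytes and injected as zygotes, 3 to 6 h after insemination, with an antisense oligonucleotide (ASO). The ASO-Control group (5 libraries) received an oligonucleotide with no target and the Mettl3-ASO group (5 libraries) one against Mettl3, which encodes the methyltransferase that places N6-methyladenosine on messenger RNA. The labels name no genetic alteration; all embryos were grown in KSOM medium to the morula stage at 72 h and pooled at 10 per library. Replicates 3 to 5 of both groups are tagged batch 2, and replicates 1 and 2 carry no batch tag and are called untagged.

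Zinc finger proteins of this class fold a short peptide around a zinc ion held by a pair of cysteines and a pair of histidines, and rows of such fingers read DNA sequence. Many mouse Zfp genes also encode a KRAB box, which binds Trim28; Trim28 in turn brings Setdb1, heterochromatin proteins and histone deacetylases to the bound site. Such KRAB proteins are known in the early embryo for holding retroviral elements and imprinted loci silent. Their genes have multiplied by local duplication, so that many lie in clusters and resemble each other closely. Other Zfp genes are unrelated apart from their fingers and work in ribosome assembly, splicing, ubiquitin transfer or the spindle.

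The repeat that gives the family its name is shown first, because the genes with the largest rises and falls include neighbours whose repeats resemble each other. Each line is the coding strand of 1 finger unit, which starts at the linker between fingers, and capitals mark the codons of the zinc-binding cysteines and histidines. For each pair of genes, the units with the fewest differing bases are given, read from GENCODE M21 transcripts (GRCm38, the build also named mm10).
Zfp51: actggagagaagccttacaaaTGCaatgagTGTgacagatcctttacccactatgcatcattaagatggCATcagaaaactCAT
Zfp52: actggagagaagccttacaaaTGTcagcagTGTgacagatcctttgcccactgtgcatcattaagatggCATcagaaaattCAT
Zfp808: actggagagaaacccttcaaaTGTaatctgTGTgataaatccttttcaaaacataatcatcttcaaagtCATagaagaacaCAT
Zfp934: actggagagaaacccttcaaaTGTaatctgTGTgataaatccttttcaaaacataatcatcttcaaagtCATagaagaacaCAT
Zfp960: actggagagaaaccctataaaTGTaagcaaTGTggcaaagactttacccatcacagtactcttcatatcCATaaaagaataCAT
Zfp97: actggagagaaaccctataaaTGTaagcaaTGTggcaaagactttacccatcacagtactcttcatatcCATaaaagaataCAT

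The units of Zfp51 (chr17:21464169-21464252, + strand) and Zfp52 (chr17:21560684-21560767, + strand) lie in the fifth of 5 exons of each gene and differ at 7 of 84 bases; the median over all pairs of their units is 20. Those of Zfp808 (chr13:62171508-62171591, + strand) and Zfp934 (chr13:62518289-62518372, - strand), each in the fourth of 4 exons, do not differ at any base, with a median of 12 over all pairs of units. The same holds for Zfp960 (chr17:17087566-17087649, + strand) and Zfp97 (chr17:17144781-17144864, + strand), with a median of 14. Reads from the stretches without a difference fit both genes, and the deposited estimates share them out. Over whole transcripts, 35.1% of the 50-base windows of Zfp808 and 36.8% of those of Zfp934 stand in another listed gene, and 81.4% of those of Zfp960. Among all 200 members, 22 share at least 10% of their windows with other genes and 103 share none.

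Mettl3 FPKM was 8.86 ± 2.7 (SD, n = 5) in ASO-Control and 0.014 ± 0.020 (SD, n = 5) in Mettl3-ASO, with 0.04 the highest value in the latter group. Library totals ranged from 9905830 to 13530284 expected counts without a batch tag and from 21412857 to 32327283 with one. All 8 morula markers looked for were at or above the floor, and 2 of them were higher and 4 lower in Mettl3-ASO. None of 10 cumulus and granulosa cell markers was, with 4 at 0 in all libraries (Amh, Cyp19a1, Has2 and Inhba) and no value above 0.62 FPKM. Summed over 10 markers of the 2-cell program, TPM (transcript abundance scaled to a common sum) was 3.68 to 18.6 in ASO-Control and 1061 to 3925 in Mettl3-ASO, and over 6 trophectoderm markers 292 to 1014 and 48.3 to 350. The same sum over the 8 morula markers was 17751 to 26747 and 25236 to 45394. The highest single value among these markers was 44271 FPKM, so 1 marker can carry much of that sum. Of the trophectoderm markers, 5 were tested and all 5 were lower, and Cdx2, Krt8 and Krt18 stand in both lists. Over 7 oocyte markers, of which 3 were tested and all 3 were higher, summed TPM was 4.26 to 7.47 and 12.4 to 29.7. These marker levels moved with the groups, and their part in the results on Zfp genes was not tested. Whether each library stems from its own fertilization is not in the labels, and the p-values therefore describe how these libraries scatter. In pooled embryos, a smaller share of a cell type and less RNA of a gene per cell cannot be told apart.

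More Zfp genes rose than fell after Mettl3 knockdown. Of the 200 members, 71 were higher and 18 were lower in Mettl3-ASO at an adjusted p under 0.05 (edgeR's quasi-likelihood test with batch as a term, Benjamini-Hochberg adjustment over 9522 genes), and 111 did not pass. The share called was 44.5%, against 49.4% of all tested genes. By direction it was 35.5% higher and 9.0% lower among members, against 25.4% higher and 24.0% lower among all tested genes. The median log2 fold change over all members was 0.39 (quartiles -0.04 and 0.79), and over all tested genes it was 0.01 (quartiles -0.47 and 0.56). The sign was positive in 147 members and negative in 53.

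Most changes were moderate. Among the 71 higher members, the fold ranged from 1.22 to 4.74 with a median of 1.94; 39 were under 2-fold, 27 between 2-fold and 4-fold and 5 at 4-fold or more. Among the 18 lower members, it ranged from 1.44-fold to 31.8-fold lower with a median of 2.08; 9 were under 2-fold and 5 at 4-fold or more. The 32 members at least 2-fold higher and 9 at least 2-fold lower are 16.0% and 4.5% of the members, against 13.4% and 8.69% of all tested genes. Of the 111 members that did not pass, 76 had a positive and 35 a negative fold change, and 92 lay under 0.5 (log2) in either direction, with a median standard error of 0.25.

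**Figure D1:**
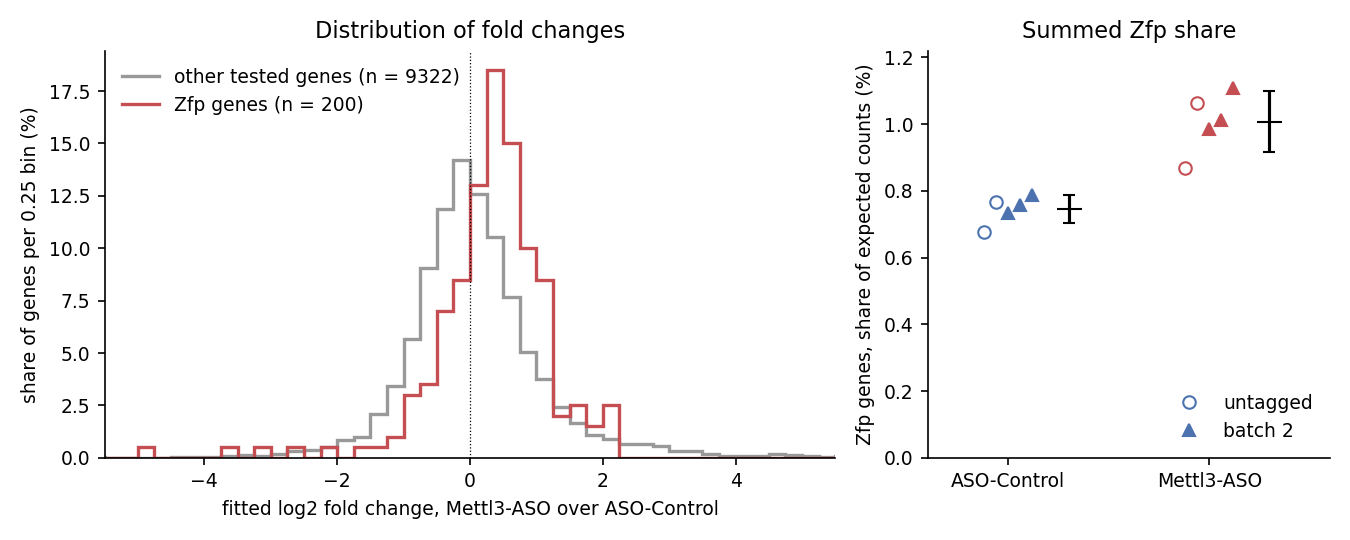
Left, share of genes (%) per bin of 0.25 in fitted log2 fold change, for the 200 Zfp genes (red) and the other 9322 tested genes (grey, 85 of them beyond the plotted range of 5.5). The Zfp distribution lies to the right of the grey one around its centre, with a few genes far to the left. Right, expected counts of all Zfp genes as a share of each library's total (%), with open circles for untagged and triangles for batch 2 libraries and the black mark giving mean ± SD of 5 libraries; the groups do not overlap.

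The summed level moved the same way. Expected counts of the 200 genes made up 0.677%, 0.765%, 0.734%, 0.759% and 0.788% of ASO-Control libraries 1 to 5, and 0.869%, 1.06%, 0.986%, 1.01% and 1.11% of Mettl3-ASO libraries 1 to 5. Every Mettl3-ASO library lay above every ASO-Control library, with means of 0.745 ± 0.042% and 1.01 ± 0.091% (SD, n = 5 each). By this share, Mettl3-ASO replicate 1 was the lowest of its group. The median difference of members from their mean control log2 CPM (counts scaled to library size) was 0.21 in that library, and 0.47, 0.42, 0.37 and 0.54 in replicates 2 to 5. Abundant members weigh most in the summed counts. Zfp706, which was not called, had 27058 to 86373 expected counts per ASO-Control library, where all members had 86430 to 254643. In Mettl3-ASO libraries it had 22772 to 87950, where all members had 105329 to 274687. Without Mettl3-ASO replicate 1, 78 members were higher and 18 lower. Replicate number was also used as a block, a pairing that no label gives. In that fit, 83 members were higher and 20 lower, against 27.6% and 27.5% of all tested genes (55.1% called in all).

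The comparison was repeated within each batch. Within batch 2 alone, 56 members were higher and 15 lower (28.0% and 7.5%), against 20.2% and 18.9% of all tested genes (39.0% called in all); the median log2 fold change over members was 0.41. Within the untagged libraries, 7 were higher and 4 lower (3.5% and 2.0%), against 3.79% and 2.47% of all tested genes (6.26% called in all); the median was 0.45. The sign was the same in both batches for 174 of the 200 (87.0%), a share close to the 85.5% of all tested genes. No member's fold change differed between batches by an interaction term in edgeR at an adjusted p under 0.05, and no tested gene did; at an unadjusted p under 0.05 there were 3 members and 159 genes. DESeq2 called 0 members and 1 gene by the same term, and limma called none.

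The floor itself bears on the counts. Zfp369 (mean FPKM 1.02), Zfp185 (1.025) and Zfp146 (1.04) lay just above it, and Zfp2 (0.995), Zfp39 (0.993) and Zfp810 (0.985) just under it. A gene that reaches the floor through its higher group alone has to differ: 14 members had a mean of at least 1 in Mettl3-ASO only (7 called, all higher) and 7 in ASO-Control only (3 called, all lower). Among the 179 members at or above 1 in both groups, 64 were higher and 15 lower (35.8% and 8.38%), against 22.4% and 24.7% of the 8683 tested genes that met the same condition. Of the 134 genes under the floor, 3 had no counts in any library and 131 were tested when the floor was dropped. In that fit 14 of them were higher and 3 lower, where 30.2% of 19442 genes were called (16.2% higher and 14.0% lower).

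Members are expressed at low to middle levels. The median member had a mean FPKM of 4.73, against 9.04 over all tested genes; 106 members were under 5 and 5 were above 100. In each range of level more members were higher than lower. Between 1 and 2 FPKM, 10 of 46 members were higher (21.7%) and 2 lower (4.35%), against 25.2% and 10.6% of all tested genes in that range. Between 2 and 5 FPKM, 23 of 60 were higher (38.3%) and 5 lower (8.33%), against 27.4% and 17.3%. Between 5 and 20 FPKM, 25 of 62 were higher (40.3%) and 7 lower (11.3%), against 28.0% and 23.9%. From 20 FPKM upward, 13 of 32 were higher (40.6%) and 4 lower (12.5%), against 22.1% and 34.2%. In the lowest range the share of members that were higher was thus under that of all tested genes, and in the other 3 ranges it was above it. The median log2 fold change of all tested genes was 0.23 between 1 and 2 FPKM and -0.13 from 20 FPKM upward, and the medians of members were 0.28 and 0.32.

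The 5 members with the highest level over all libraries were Zfp706, Zfp207, Zfp936, Zfp960 and Zfp51. Zfp706, a small protein known from work on stem cell self-renewal, had FPKM of 508, 544, 615, 643 and 593 in ASO-Control libraries 1 to 5 and 569, 545, 755, 738 and 686 in Mettl3-ASO libraries 1 to 5. The groups overlapped, and the log2 fold change was 0.13 ± 0.08 (SE; adjusted p = 0.207). Zfp207, a spindle assembly protein that binds Bub3, had 95.8 to 121 FPKM in ASO-Control and 104.9 to 225 in Mettl3-ASO, where replicate 2 stood apart. It did not pass (log2 fold change 0.35 ± 0.19, adjusted p = 0.146). The value was 0.085 (adjusted p = 0.62) without Mettl3-ASO replicate 2 and 0.50 (adjusted p = 0.00706), which passes, without replicate 1. Zfp936, a KRAB gene of chromosome 7, had 45.7, 54.0, 78.1, 82.3 and 93.8 FPKM in ASO-Control and 97.2, 166, 135, 198 and 194 in Mettl3-ASO. No Mettl3-ASO library was below any control, and Zfp936 rose 2.23-fold (adjusted p = 0.000293).

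Zfp960 had 44.3, 69.9, 98.5, 45.6 and 91.1 FPKM in ASO-Control and 94.5, 172, 182, 130 and 209 in Mettl3-ASO, and rose 2.20-fold (adjusted p = 0.00295), although the lowest Mettl3-ASO library lay under the highest control. Its near-copy Zfp97, named here after its values were seen, rose 1.94-fold (adjusted p = 0.0120). The split of reads between these genes is estimated. Their summed expected counts were 163 to 343 CPM in ASO-Control and 335 to 788 CPM in Mettl3-ASO, with means of 256 ± 83.7 and 554 ± 165 (SD, n = 5 each); the lowest Mettl3-ASO library lay under the highest control.

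Among called members with a mean of at least 5 FPKM in the higher group, the 10 largest rises were Zfp52, Zfp560, Zfp947, Zfp217, Zfp51, Zfp809, Zfp775, Zfp707, Zfp791 and Zfp422, and in each of them every Mettl3-ASO library lay above every control. Over all members, 44 had groups that did not overlap with Mettl3-ASO higher (22.0%, against 15.0% of all tested genes) and 13 with Mettl3-ASO lower (6.5%, against 10.6%). Zfp52, a KRAB gene with 14 fingers, had 1.89, 2.97, 2.32, 1.20 and 3.50 FPKM in ASO-Control and 12.8, 12.1, 11.4, 7.77 and 14.5 in Mettl3-ASO. It rose 4.74-fold (log2 2.25 ± 0.29, adjusted p = 6.24e-05). Its neighbour Zfp51, a KRAB gene with 19 fingers, was far more abundant. Zfp51 had 32.7, 41.5, 41.6, 51.8 and 48.2 FPKM in ASO-Control and 71.3, 210.2, 222, 144 and 258 in Mettl3-ASO. Mettl3-ASO replicate 1 was the lowest of the Mettl3-ASO libraries, and the rise was 4.09-fold (log2 2.03 ± 0.28, adjusted p = 8.74e-05).

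Zfp947, also a KRAB gene of chromosome 17, had 14.9, 14.0, 11.8, 13.2 and 14.0 FPKM in ASO-Control and 54.2, 64.1, 19.8, 52.5 and 98.6 in Mettl3-ASO. The controls were close to each other and the Mettl3-ASO libraries spread widely, with replicate 3 lowest; the rise was 4.17-fold (log2 2.06 ± 0.32, adjusted p = 0.000221). Zfp560, a KRAB gene of chromosome 9 with 15 fingers, had 1.42, 1.57, 1.76, 0.80 and 1.16 FPKM in ASO-Control and 4.50, 7.67, 4.97, 5.12 and 8.14 in Mettl3-ASO. It rose 4.45-fold (log2 2.15 ± 0.27, adjusted p = 5.14e-05). Zfp775, Zfp707, Zfp791 and Zfp422 rose between 2.94-fold and 3.64-fold. Their mean FPKM went from 2.02 ± 0.46 to 7.77 ± 2.37, from 8.74 ± 2.77 to 29.7 ± 9.35, from 7.45 ± 1.11 to 24.7 ± 8.27 and from 2.48 ± 0.76 to 7.49 ± 0.85 (SD, n = 5 each). Among the transcript bases of Zfp775, 12.8% lie under exons of a gene on the opposite strand, whose reads cannot be told apart unless the counting used strand.

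By the same level rule, the 10 largest falls were Zfp934, Zfp808, Zfp277, Zfp7, Zfp160, Zfp935, Zfp655, Zfp930, Zfp788 and Zfp410. Zfp934, a KRAB gene of chromosome 13, had 7.43, 9.28, 7.90, 19.0 and 12.9 FPKM in ASO-Control and 0.08, 0.11, 0.19, 0.68 and 0.90 in Mettl3-ASO, from 191 to 1217 expected counts per control library and 2 to 38.7 per Mettl3-ASO library. It was 31.8-fold lower (log2 -4.99 ± 0.47, adjusted p = 6.55e-06). Zfp808, the KRAB gene that shares its finger repeats, had 13.6, 22.5, 23.9, 19.4 and 29.6 FPKM in ASO-Control and 1.84, 1.53, 1.88, 1.69 and 2.01 in Mettl3-ASO. The Mettl3-ASO libraries were close to each other, and Zfp808 was 12.6-fold lower (log2 -3.66 ± 0.21, adjusted p = 1.41e-07). The summed expected counts of both genes, which do not depend on how reads were split between this pair, were 85.7 ± 20.6 CPM in ASO-Control and 5.95 ± 1.1 CPM in Mettl3-ASO (SD, n = 5 each).

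Zfp935 lies beside Zfp934 (Zfp935 at chr13:62453016-62466832, Zfp934 at chr13:62479827-62571199, Zfp808 at chr13:62129886-62236144), and it fell as well. Its FPKM was 18.9, 29.5, 26.0, 26.1 and 38.1 in ASO-Control and 13.2, 8.87, 10.6, 18.7 and 22.6 in Mettl3-ASO; the groups overlapped, and the log2 fold change was -0.99 ± 0.23 (adjusted p = 0.00329). Of its transcript bases, 64.4% also belong to exons of another gene on the same strand, so its count is uncertain. On the same chromosome, the cluster from Zfp708 to Zfp65 (chr13:67069399-67729173) held 10 members, of which 2 were higher and none lower. In edgeR, the adjusted p was above 0.05 for the other 8. The share that was higher lay under the 35.5% of all 200 members and the 25.4% of all tested genes. The shares that were lower were 9.0% of all members and 24.0% of all tested genes.

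Zfp277, which binds the ribosomal protein Rps2, had 35.3, 41.1, 33.4, 32.4 and 33.2 FPKM in ASO-Control and 15.9, 11.4, 13.7, 10.1 and 6.45 in Mettl3-ASO. It was 3.19-fold lower (log2 -1.67 ± 0.19, adjusted p = 2.15e-05). Zfp7 and Zfp160 were 2.40-fold and 2.21-fold lower, with adjusted p of 0.00141 and 0.000296, and Zfp655 1.72-fold (adjusted p = 0.00293); the groups did not overlap in these 3 genes. Zfp930, Zfp788 and Zfp410 fell by 0.58, 0.54 and 0.53 on the log2 scale. The call of Zfp930 (adjusted p = 0.0271) did not hold when library 2 or 5 of ASO-Control or library 1, 3 or 4 of Mettl3-ASO was left out, with log2 values of -0.37 to -0.54. Zfp410 is known as an activator of Chd4, a helicase of the nucleosome remodelling and deacetylase complex. Chd4 itself had 5.07 ± 1.96 FPKM in ASO-Control and 5.84 ± 2.44 in Mettl3-ASO (log2 fold change 0.16 ± 0.17, adjusted p = 0.476).

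**Figure D2:**
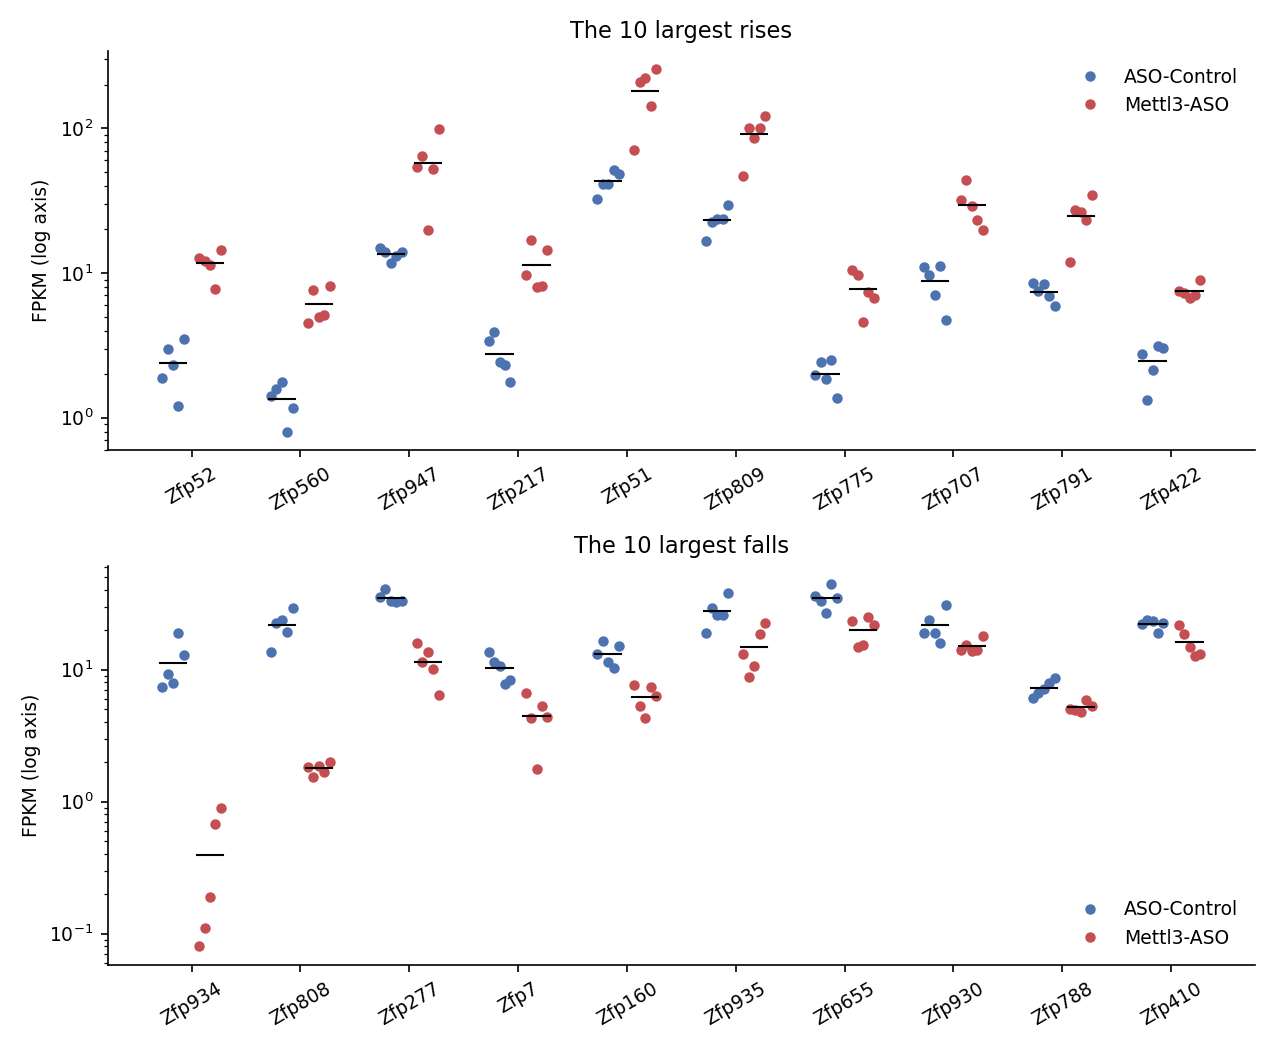
FPKM on a log axis in each of 5 ASO-Control (blue) and 5 Mettl3-ASO (red) libraries, in replicate order from left to right, for the 10 largest rises (top) and falls (bottom) among members that reach 5 FPKM in the higher group; the black line is the group mean. The groups are apart for every rise, and they overlap for Zfp935, Zfp930 and Zfp410 among the falls.

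Of 7 KRAB proteins known for repressing imprinted or retroviral sequence, 3 rose, none fell and 4 did not pass, with a median log2 fold change of 0.54. The share called was 42.9%, against 49.4% of all tested genes. Zfp809, which binds the primer binding site of murine leukaemia virus and brings Trim28 to it, had 16.6, 22.5, 23.5, 23.5 and 29.4 FPKM in ASO-Control and 46.5, 101, 85.8, 100.4 and 122 in Mettl3-ASO. It rose 3.98-fold (log2 1.99 ± 0.23, adjusted p = 2.79e-05), with Mettl3-ASO replicate 1 the lowest of its group. Zfp445, which keeps methylation at imprinted loci, rose 1.56-fold (5.75, 4.17, 3.85, 4.25 and 4.53 FPKM in ASO-Control; 8.56, 7.05, 5.83, 7.08 and 7.91 in Mettl3-ASO; adjusted p = 0.00287). Zfp568, a repressor of a placental Igf2 transcript, rose 1.45-fold (adjusted p = 0.0126).

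Zfp57, the best known protector of imprinted methylation, did not pass. Its FPKM was 15.2, 6.85, 19.2, 8.81 and 9.05 in ASO-Control and 18.0, 6.64, 11.97, 9.10 and 10.6 in Mettl3-ASO, with a log2 fold change of -0.30 ± 0.30 (adjusted p = 0.426). Replicate 2 was the lowest library of each group. Zfp932, which binds endogenous retroviruses, had 51.7 ± 8.30 and 69.1 ± 9.83 FPKM (SD, n = 5 each) and a log2 fold change of 0.38 ± 0.15. Its adjusted p was 0.0597, and 0.0138 with replicate number as a block. Zfp708 (0.39 ± 0.30) and Zfp819 (0.57 ± 0.27), also known from retroviral repression, did not pass; all transcript bases of Zfp708 also lie in exons of another gene on the same strand.

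Genes of the silencing machinery that KRAB proteins recruit moved both ways. Of 16 listed genes, 3 were higher, 7 lower and 6 did not pass, with a median log2 fold change of -0.14. The shares were 18.8% higher and 43.8% lower, against 25.4% and 24.0% of all tested genes. Trim28 had 51.0 ± 8.40 FPKM in ASO-Control and 58.7 ± 13.4 in Mettl3-ASO (log2 fold change 0.14 ± 0.13, adjusted p = 0.386). Setdb1, the histone methyltransferase that Trim28 recruits, rose by 0.47 ± 0.17 (adjusted p = 0.0337). Cbx1, which encodes a heterochromatin protein, went from 114.7 ± 18.5 to 45.1 ± 11.3 FPKM (log2 fold change -1.41 ± 0.17, adjusted p = 3.84e-05). Of the other Cbx genes listed, Cbx5 fell as well (-1.04 ± 0.17, edgeR, adjusted p = 0.000281). Cbx3 rose from 123.4 ± 16.9 to 170.3 ± 27.8 FPKM (0.42 ± 0.12, adjusted p = 0.0101). Morc3, an ATPase of silenced chromatin, had 22.8, 30.5, 29.0, 29.2 and 38.2 FPKM in ASO-Control and 4.33, 4.59, 4.42, 6.22 and 7.39 in Mettl3-ASO (log2 fold change -2.53 ± 0.18, adjusted p = 1.14e-06).

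Among 10 chromatin complex partners listed, 5 were members and 5 (Zfp219, Zfp462, Zfp532, Zfp687 and Zfp827) lay under the floor. Of the 5 members, 3 rose, none fell and 2 did not pass, with a median log2 fold change of 0.79. Over all tested genes, 49.4% were called (25.4% higher and 24.0% lower), and a share over only 5 genes is coarse. Zfp217 works with the demethylase Kdm1a and has been reported to bind Mettl3 protein in stem cells. It had 3.41, 3.89, 2.41, 2.32 and 1.77 FPKM in ASO-Control and 9.63, 16.9, 8.05, 8.10 and 14.4 in Mettl3-ASO, and rose 4.16-fold (log2 2.06 ± 0.24, adjusted p = 2.63e-05). Every Mettl3-ASO library lay above every control. Zfp644, a partner of the histone methyltransferases Ehmt1 and Ehmt2, rose 1.86-fold (adjusted p = 0.000719), and Zfp451, a SUMO ligase, 1.73-fold (adjusted p = 0.00401). Zfp638, which silences unintegrated retroviral DNA, and Zfp592, a partner of the chromatin reader Zmynd8, did not pass (0.17 ± 0.19 and -0.03 ± 0.18).

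Among 16 sequence-specific transcription regulators listed, 12 were members. Of these 12, 5 rose, 2 fell and 5 did not pass (58.3% called, against 49.4% of all tested genes). Zfp296, a pluripotency-associated factor, had 34.6 and 38.1 FPKM in the untagged and 15.7, 17.4 and 15.8 in the batch 2 ASO-Control libraries. It had 70.0 and 82.7 in the untagged and 41.6, 33.4 and 36.9 in the batch 2 Mettl3-ASO libraries. The groups overlap when batches are pooled and are apart within each batch, and Zfp296 rose 2.16-fold (adjusted p = 4.36e-05). Of its transcript bases, 17.2% lie under a gene on the opposite strand. Zfp263, Zfp148 and Zfp131 rose 1.77-fold, 1.75-fold and 1.73-fold, with adjusted p of 0.00209, 0.00415 and 0.0125. The call of Zfp131 was lost without Mettl3-ASO replicate 2 (adjusted p = 0.0525). Zfp335, a subunit of histone methyltransferase complexes, rose 1.72-fold at the low level of 1.002 ± 0.32 to 1.75 ± 0.47 FPKM (adjusted p = 0.0148), with 29.2% of its transcript bases under a gene on the opposite strand.

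Zfp64 fell by 0.77 ± 0.24 on the log2 scale (adjusted p = 0.0183). Its call was lost without ASO-Control replicate 3 (-0.61, adjusted p = 0.0588). Zfp410, given above, was the other fall in this list. Zfp143 and Zfp281, a promoter-binding factor and a regulator of pluripotency, had log2 fold changes of 0.12 ± 0.16 and 0.20 ± 0.15 and did not pass, nor did Zfp292 (0.19 ± 0.25), Zfp384 (0.29 ± 0.17) and Zfp706. Zfp423, Zfp503, Zfp521 and Zfp703 lay under the floor.

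Among 11 listed proteins of RNA, ribosomes, spindle and ubiquitin transfer, 10 were members. Of these 10, 3 rose, 1 (Zfp277) fell and 6 did not pass (40.0% called, against 49.4% of all tested genes). Zfp622, which acts in the maturation of the large ribosomal subunit, had 19.7, 16.1, 10.3, 16.5 and 12.2 FPKM in ASO-Control and 31.6, 37.9, 26.8, 31.1 and 31.3 in Mettl3-ASO. The groups did not overlap, and it rose 2.09-fold (adjusted p = 0.000155). Zfp598, the ubiquitin ligase that senses collided ribosomes, rose 1.68-fold (adjusted p = 0.0127), with ASO-Control replicate 1 at 6.62 FPKM and the other controls at 3.49 to 3.83. Zfp593, an export factor of the large subunit, rose 1.22-fold (adjusted p = 0.0497). That call was lost in 8 of the 10 fits that left out a library, and 76.9% of its transcript bases lie under a gene on the opposite strand. Zfp106 (RNA-binding), Zfp91 (a ubiquitin ligase) and Zfp326 (a splicing factor) had negative values of -0.29 ± 0.12, -0.28 ± 0.14 and -0.50 ± 0.21, and Zfp346 (binding double-stranded RNA) and Zfp830 positive ones of 0.23 ± 0.30 and 0.28 ± 0.15; none passed. Zfp106 passed with replicate number as a block (adjusted p = 0.0423). Zfp318 lay under the floor.

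**Figure D3:**
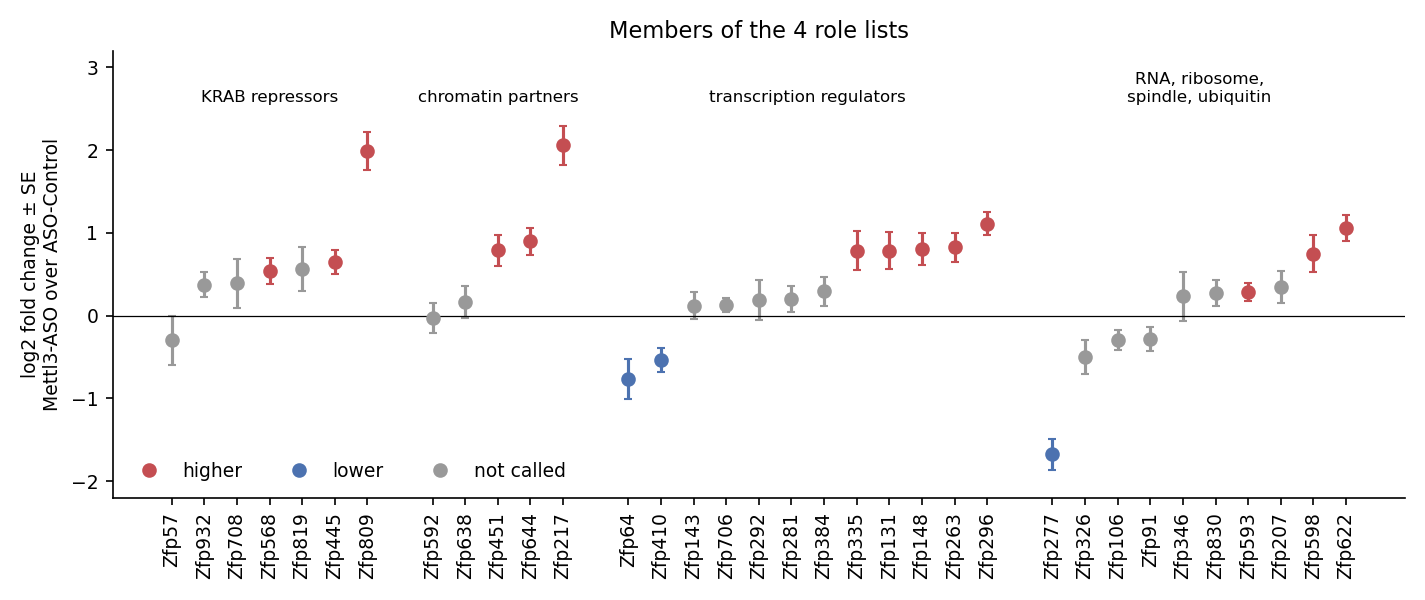
Fitted log2 fold change ± SE, Mettl3-ASO over ASO-Control, of the members of 4 role lists, sorted within each list; red marks genes called higher, blue lower and grey not called. Zfp809 and Zfp217 stand at 1.99 and 2.06, and Zfp277 at -1.67.

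Outside these lists, 166 members included 57 higher and 15 lower (34.3% and 9.04%, against 25.4% and 24.0% of all tested genes). Their median log2 fold change was 0.41. Among them Zfp667 and Zfp330 were named after their values were seen. Zfp667 had 7.18, 8.03, 2.79, 2.44 and 3.71 FPKM in ASO-Control and 1.52, 1.22, 0.92, 0.59 and 0.93 in Mettl3-ASO, and was 4.47-fold lower (adjusted p = 1.63e-05). Zfp330, among the most abundant members that fell, had 56.0 to 63.5 FPKM in ASO-Control and 33.5 to 47.1 in Mettl3-ASO, and was 1.44-fold lower (adjusted p = 0.00184).

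The 200 members lie on 19 chromosomes, with 46 on chromosome 7, 29 on chromosome 17 and 20 on chromosome 13. Of those on chromosome 7, 17 were higher and 3 lower (37.0% and 6.52%). On chromosome 17, 12 were higher and 1 lower (41.4% and 3.45%), and on chromosome 13, 4 and 3. Over all 200 members, 35.5% were higher and 9.0% lower, and over all tested genes 25.4% and 24.0%. Chromosome 13 had a smaller share higher and a larger share lower than all 200 members. Clusters were defined as runs of at least 5 members with gaps under 500 kb. The longest, from Zfp160 to Zfp946 (chr17:21008903-22456689), held 16 members with a median log2 fold change of 0.79. Of these 16, 9 were higher and 1 lower (56.2% and 6.25%, against 35.5% and 9.0% over all 200 members). Values in this paragraph and the next, other than those already given, were chosen after they were seen.

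In that cluster, Zfp160 at the near end fell (-1.15 ± 0.18), its neighbour Zfp677 did not pass (-0.11 ± 0.19), and Zfp54 (0.96 ± 0.23), Zfp51 and Zfp52 rose. Further along, Zfp820 (1.08 ± 0.21), Zfp943 (0.92 ± 0.29), Zfp947, Zfp944 (0.65 ± 0.22), Zfp758 (1.09 ± 0.25) and Zfp946 (1.62 ± 0.34) rose. Between them lay genes that did not pass: Zfp53 (0.40 ± 0.22), Zfp948 (0.42 ± 0.25), Zfp760 (-0.57 ± 0.27), Zfp229 (0.47 ± 0.20) and Zfp942 (0.44 ± 0.18). Zfp946, counted among the higher members of this cluster, reached the floor through Mettl3-ASO alone and so had to differ. Its mean was 0.76 FPKM in ASO-Control and 2.46 in Mettl3-ASO. Zfp229 and Zfp942 passed with replicate number as a block (adjusted p = 0.0346 and 0.0273). The call of Zfp943 was lost without Mettl3-ASO replicate 5 (0.61, adjusted p = 0.0625), and that of Zfp944 when library 3 or 5 of ASO-Control or library 4 or 5 of Mettl3-ASO was left out (0.53 to 0.66). A different cluster of the same chromosome, from Zfp871 to Zfp414 (chr17:32765496-33631779), held 8 members. None of the 8 was called by edgeR with batch as a term, against 44.5% called over all 200 members. Their log2 fold changes had a median of 0.18 and ran from -0.12 to 0.53. With replicate number as a block, Zfp472 and Zfp81 in this cluster passed (edgeR, adjusted p = 0.00685 and 0.0166). On chromosome 7, 3 of 8 members were higher from Zfp84 to Zfp146 (37.5%) and 2 of 5 from Zfp936 to Zfp819 (40.0%), with none lower, against 35.5% higher over all 200 members. On chromosome 8, 1 was higher and 1 lower of 5 from Zfp930 to Zfp866 (40.0% called, against 44.5% over all members). Members of a cluster share sequence as well as position, and whether their changes differ from those of genes elsewhere was not tested.

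**Figure D4:**
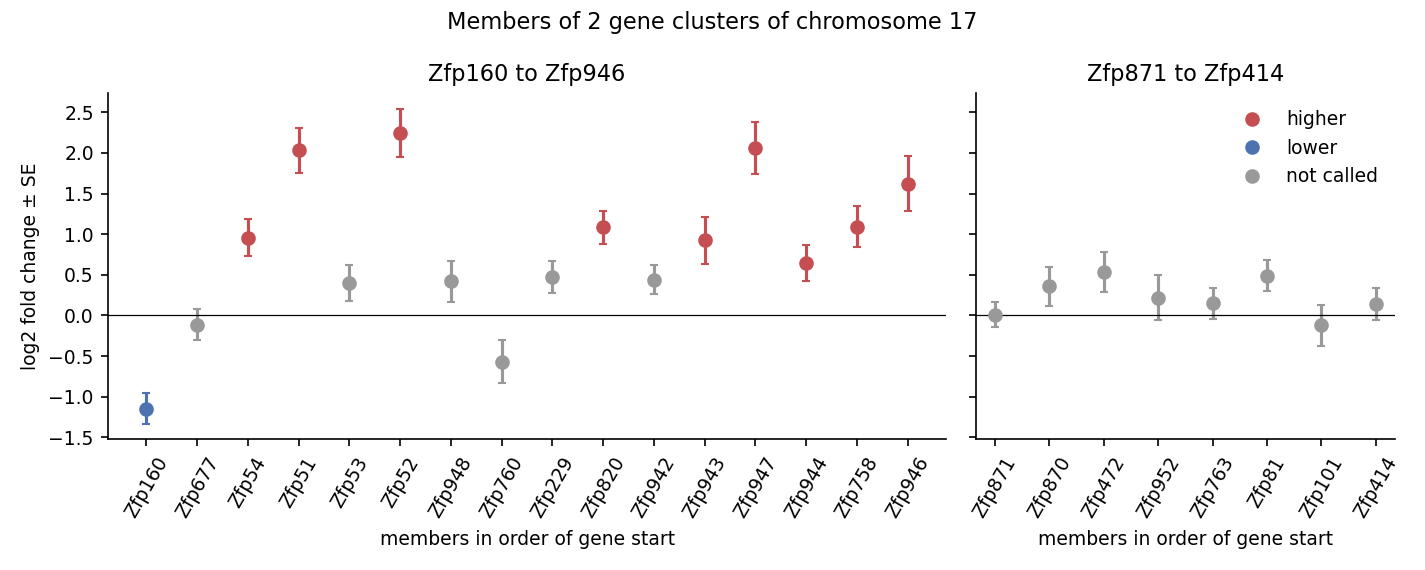
Fitted log2 fold change ± SE of the members of 2 clusters of chromosome 17 in order of gene start; red marks genes called higher, blue lower and grey not called. In the cluster from Zfp160 to Zfp946, 9 of 16 are red, and in that from Zfp871 to Zfp414 all 8 are grey.

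The proteins encoded by members were read from annotated coding sequence, which 199 members have. They hold 0 to 29 fingers with a median of 11, and 117 match a KRAB box. With a KRAB box match, 41 of 117 were higher and 11 lower (35.0% and 9.4%, median log2 fold change 0.41). Without one, 29 of 82 were higher and 7 lower (35.4% and 8.54%, median 0.30). Over all tested genes, 25.4% were higher and 24.0% lower. Members with 8 to 12 fingers included 32 higher and 6 lower of 85 (37.6% and 7.06%, median 0.48). Those with 13 or more had 19 and 6 of 58 (32.8% and 10.3%, median 0.39). Those with 3 to 7 had 16 and 4 of 42 (38.1% and 9.52%, median 0.21). Those with 0 to 2 had 3 and 2 of 14 (21.4% and 14.3%, median 0.22). Of 51 genes with other symbols, a KRAB box match and at least 3 fingers, 15 were higher and 6 lower (29.4% and 11.8%, median 0.26). Of 101 with other symbols, at least 3 fingers and no KRAB box match, 40 were higher and 10 lower (39.6% and 9.9%). The median of these 101 was 0.41. By symbol, 11 of 24 Zbtb genes were higher and 2 lower (45.8% and 8.33%). In edgeR, 13 of 17 Zscan and Zkscan genes were higher (76.5%) and none lower. This set takes in Zscan4c, Zscan4d and Zscan4f, which are among the 10 markers of the 2-cell program, all 10 of them higher. Zdhhc genes, which encode enzymes with an unrelated zinc fold, had 3 higher and 4 lower of 15, and Zc3h genes 5 and 3 of 11.

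Member transcripts differ in build from the average tested transcript. Their longest exon had a median of 2428.5 bases, against 1134.5 over 9490 tested genes with a matched transcript. As background, in genes of this class the fingers are usually encoded in a single long last exon. Coding GC was 44.7% against 51.8%, and CpG count in the 300 bases around the start site had a median of 13 over the 169 members in the RefSeq promoter table (GRCm38.p6), against 21. GGACT on the transcript strand, the most frequent core of the sequence that Mettl3 methylates, was found in 86.0% of members and 88.3% of tested genes. Its density was 0.74 per kilobase in members and 1.02 in tested genes. It was 0.80 among the members that were higher, 0.57 among those that were lower and 0.74 among those that did not pass. A match is only a run of letters and says nothing of methylation at that place.

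The first coding GGACT sites in an exon are shown for the 3 largest rises and the 3 largest falls named above that have one, with 10 bases on each side and GGACT in capitals, to set the motif beside the genes the results turn on.
Zfp52: atgtggctgtGGACTtctcccaaga
Zfp560: ataaatgtaaGGACTgtggcaaagc
Zfp217: agaagcataaGGACTccttcacgta
Zfp277: gcagatttaaGGACTcacatggaag
Zfp7: agccatcagaGGACTcacaccgggg
Zfp160: aaagggccctGGACTgtggagagtg

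These lie at chr17:21557154-21557178 (+ strand, Zfp52), chr9:20348453-20348477 (- strand, Zfp560), chr2:170119960-170119984 (- strand, Zfp217), chr12:40317143-40317167 (- strand, Zfp277), chr15:76891380-76891404 (+ strand, Zfp7) and chr17:21020753-21020777 (+ strand, Zfp160) of GRCm38. The number of sites per transcript varied among genes that moved the same way. Zfp560 had 7 and Zfp809 had 6, while Zfp947, which rose 4.17-fold, had none. Zfp934, Zfp808 and Zfp655 had none among the 10 largest falls, and the other 7 had 1 to 3.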

How the data were processed

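RNA was measured in 10 libraries of pooled morulae, per the labels' protocols from polyA RNA by full-length cDNA amplification (SMART-Seq v4 PLUS). The authors deposited 1 gene table per library with the columns RSEM writes; STAR 2.7.10, RSEM 1.3.3 and the mm10 build are named by the submitters' processing notes. Options, annotation release and strand setting of the counting are not given in the sources used here. Deposited expected counts are estimates per gene in which reads that fit several genes are shared out, so near-identical copies are uncertain. The deposited FPKM values are scaled by the authors to transcript length and library size, and the deposited TPM values to a common sum per library. Ratios of group means in FPKM were checked against those in CPM, and 0 members differed over 1.5 times. Reads carry no molecular identifiers.

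Sample titles gave each library its group and replicate number. After rounding, expected counts went into edgeR 4.0.16's quasi-likelihood test (R 4.3.3) with TMM scaling, terms for batch and group, and genes of a mean FPKM of at least 1 (9522 genes). Adjusted p-values are Benjamini-Hochberg values over those genes; a gene is called under 0.05, and its standard error is |log2 fold change| over the root of the F statistic. Tested on simulated data, the fit recovered 65% of 2-fold and 95% of 4-fold changes. It called 4 unchanged genes in a step of 9522 genes, changed ones included. Whether the simulated data scatter as these libraries do was not tested. Alternatives were other scalings, no floor or an FPKM floor of 5, DESeq2 1.42.0, limma 3.58.1 on log2(FPKM + 1) or log2(FPKM + 0.1), no batch term, each batch alone, the replicate number as a block and leaving out each library.

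For the block fit, replicate numbers 1 to 5 in the titles were taken to pair the libraries. Deviations from the mean of group and batch had r of 0.105 to 0.273 between libraries of the same number. Replicates 1 and 2, the only 2 untagged libraries per group, have the same r by construction, which leaves 4 distinct values. Those of batch 2 are tied to each other too, because they come from deviations from a shared mean. Libraries with different numbers were not compared, so these r values cannot show that the numbers pair the libraries. No label says what the numbers share, and the pairing is an assumption of the block fit.

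Members, lists and tests were chosen with earlier results of these data known. Members were named by a rule: the 10 largest rises and falls among called members with at least 5 FPKM in the higher group and the same sign in both batches, the 5 highest levels, all members of 4 role lists, and the 3 genes on each side of the floor. A further 15 members, and Zfp472 and Zfp81 besides, were named after their values were seen. Transcripts (GENCODE M21, GRCm38) were matched by RefSeq accession for 198 members and by symbol for 2, taking the longest coding sequence. Fingers and KRAB boxes were matched by pattern in the translated sequence; 14 tested genes with under 3 fingers also matched the KRAB pattern. Shared sequence was measured in windows of 50 bases. Sets were described by counts and medians with no test of the set.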

Additional observations from a re-analysis of the deposited data

Results flagged for a closer look

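A library was noted where, within a group of 5, its value lay far from the other 4 relative to the group's range, which chance gives in about 1 in 20 groups; 140 groups of named members were looked at and 5 stood out. Zfp146 had 2.24 FPKM in Mettl3-ASO replicate 1 and 0.97 to 1.24 in the other 4 libraries of that group. Zfp207 had 225 FPKM in Mettl3-ASO replicate 2 and 104.9 to 136 in the others. Zfp598 had 6.62 FPKM in ASO-Control replicate 1 and 3.49 to 3.83 in the others. Zfp948 had 7.78 FPKM in ASO-Control replicate 3 against 4.03 to 4.29, and 4.14 in Mettl3-ASO replicate 4 against 7.01 to 7.71.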

How the results depend on the processing

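The counts of 71 higher and 18 lower members moved by over 1.5 times under 2 of 11 settings other than leaving out a library. With a mean FPKM floor of 5, which left 94 members, 46 were higher and 11 lower. In the untagged libraries alone, 2 per group, 7 were higher and 4 lower, and 596 of all tested genes were called in place of 4704. Across the other settings the counts were 56 to 86 higher and 15 to 20 lower. Leaving out each library in turn gave 63 to 78 higher, 16 to 21 lower, 4194 to 4800 of all tested genes, a median log2 fold change over members of 0.30 to 0.47, and 0 members with a difference between batches. With a block for replicate number that replaces batch, 83 members were higher and 20 lower, the median was 0.38, and 5246 of all tested genes were called; all 89 called members were called there too. Among the members named above, the block added calls for Zfp932, Zfp106, Zfp229, Zfp942, Zfp472 and Zfp81 and changed no other call. Upper-quartile scaling moved the median of all tested genes to 0.07 and that of members to 0.45, and dropping the floor moved them to 0.18 and 0.34. No named member that was called changed sign under any setting run. Of 46 named called members, 39 kept their call in every setting that tested them other than the untagged libraries alone, and 9 of these were not tested with the FPKM floor of 5; the exceptions are Zfp131, Zfp335, Zfp593, Zfp64, Zfp930, Zfp943 and Zfp944. On log2(FPKM + 1) in limma, falls of scarce genes were smaller: Zfp934 had -3.10 and Zfp185 -1.18, in place of -4.99 and -3.12. Over all settings run, the adjusted p spanned 0.00706 to 0.62 for Zfp207, 0.0138 to 0.524 for Zfp932, 1.18e-05 to 0.369 for Zfp131, 0.00712 to 0.319 for Zfp64, 0.0423 to 0.476 for Zfp106, 0.0242 to 0.373 for Zfp229, 0.00688 to 0.338 for Zfp942 and 0.000438 to 0.236 for Zfp943. The untagged libraries number 2 per group and have the lower depth.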
